A study of Mus musculus with 29 samples.

Results

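Lung tumours that came back in TI-KM mice fell into 2 kinds by 1 transcript. Of 6 recurrences, 4 had almost no signal for Prm1, the gene of the sperm protein protamine 1, and 2 had as much of it as primary tumours. The recurrences, 6 of 29 arrays in the series, were split on the Prm1 probe set with the highest mean over all arrays, below a signal of 100 or above 500. Prm1 therefore describes the groups and was not tested, and every other gene was compared between them. The signal is a MAS5 intensity on a linear scale, and only 2 arrays stand on the side with Prm1.

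All 6 recurrences are labelled lung adenocarcinoma or adenoma recurrence and carry CCSP-rtTA, TRE-KrasV12 and TRE-Mad2 on a mixed 129/Bl6 background. The 14 TI-KM primary tumours have the same 3 transgenes and background, the 8 TI-K primary tumours lack TRE-Mad2, and the normal lung came from a mouse with CCSP-rtTA alone. In this system the CCSP promoter, which is active in secretory cells of the airway, drives the reverse tetracycline transactivator, and that protein switches on the TRE transgenes when doxycycline is given. Mad2, the product of mouse Mad2l1, is a spindle checkpoint protein that delays chromosome separation. The labels give no age, doxycycline schedule or time to relapse. The title numbers of the 6 recurrences differ, but the labels do not say that each tumour came from its own mouse. The p-values therefore measure a spread between samples, which may be in part technical. In the main fit that spread is pooled for each gene over the 6 recurrences and the 14 TI-KM and 8 TI-K primaries. It rests mainly on the primaries, and the recurrences are assumed to vary as the primaries do.

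Protamines are small arginine-rich proteins that take the place of histones when the sperm nucleus is packed. Prm1 is normally transcribed in round spermatids of the testis, where the factor CREM acts through a cAMP response element close to the start site, and it is neighboured by the genes of the same family, Prm2 and Prm3. Fragments of Prm1 with its polyadenylation signal have also been used to end transgene constructs. The sources used here do not give the ends of the TRE transgenes, so which transcript the Prm1 probe sets read was not tested.

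The 250 bases before the Prm1 start site are shown because the groups were defined by this gene. They lie at chr16:10796824-10797073 on the minus strand of GRCm38.p6 (RefSeq), and capitals mark TGACTTCA, a cAMP response element, and TATAA, the core of a TATA box, which begin 64 and 32 bases before the start.
Prm1 upstream: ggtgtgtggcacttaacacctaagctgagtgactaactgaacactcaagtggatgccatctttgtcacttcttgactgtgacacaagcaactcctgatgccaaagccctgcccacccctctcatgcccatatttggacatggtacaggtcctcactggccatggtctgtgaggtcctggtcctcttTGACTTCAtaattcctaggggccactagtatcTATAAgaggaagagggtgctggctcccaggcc
Searched on both strands, TGACTTCA occurred in 1.31% and TATAA in 22.8% of the same window in 32851 promoters. The palindrome TGACGTCA was not found in the Prm1 window and occurred in 1.55% of promoters. These matches describe the letters and say nothing of binding.

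On the probe set used for the split, the signal was 1.28, 1.05, 0.729 and 0.976 in recurrences 1, 3, 5 and 6, and 4705 and 5521 in recurrences 2 and 4. The 14 TI-KM primaries read 872 to 12918 with a median of 4908, the 8 TI-K primaries 3769 to 9441 with a median of 4972, and the normal lung 2.86. No array lay between 2.86 and 872, so the thresholds of 100 and 500 cut through an empty range.

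The other probe sets separated the same arrays. The second read 8.81, 15.7, 0.43 and 1.15 in recurrences 1, 3, 5 and 6 against 4085 and 4612 in recurrences 2 and 4. The third, the weakest, read 139, 170, 60.8 and 39.9 against 594 and 602, so recurrences 1 and 3 lay between 100 and 500 there. All 4 recurrences without Prm1 signal lay below every primary on each of the 3 probe sets. On the third they lay above the normal lung, which read 9.51. All 3 are _x_at probe sets, whose probes can match other transcripts.

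**Figure D1:**
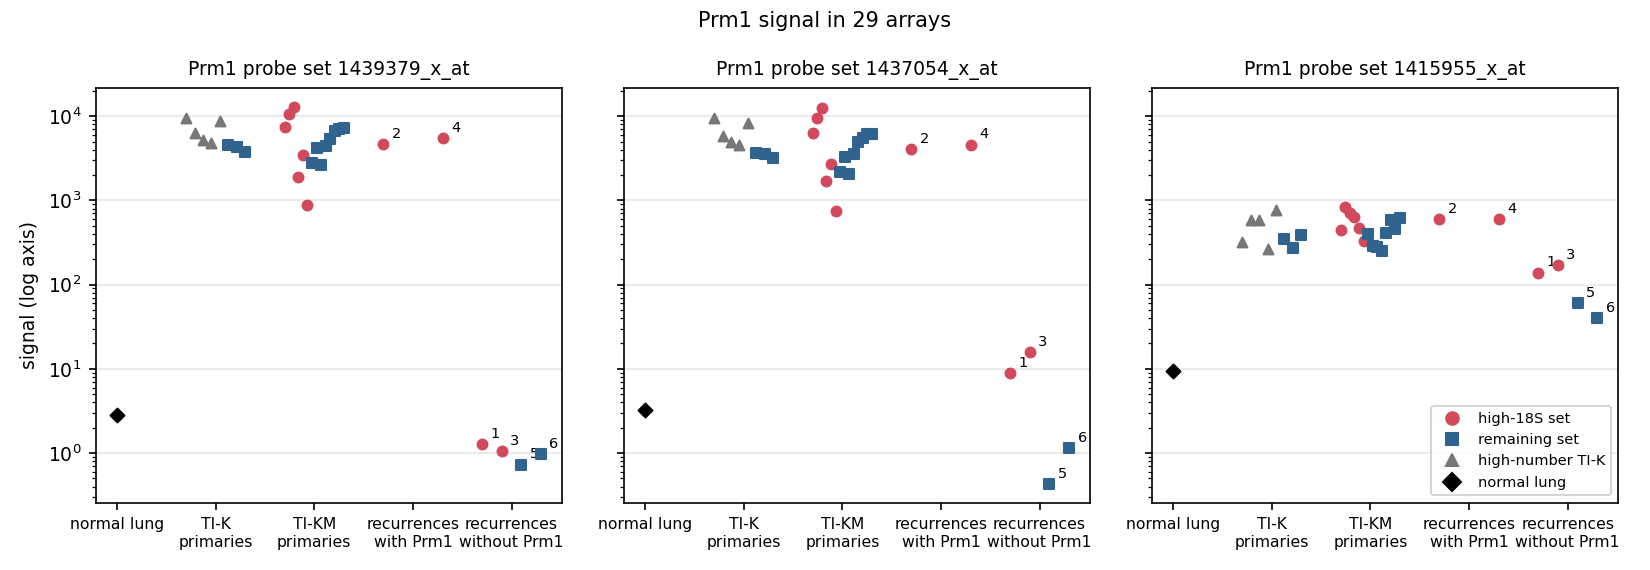
Signal of the 3 Prm1 probe sets (log axis) in each of 29 arrays, grouped by kind of tissue; each point is 1 array, recurrences carry their number, and colour and shape give the array set. Recurrences 1, 3, 5 and 6 sit below every primary tumour in each panel, and recurrences 2 and 4 sit among the primaries.

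Some properties of the arrays differed along with this split. Recurrences 1 to 4 belong to a set of 10 arrays with an 18S ribosomal control signal above 12000, and recurrences 5 and 6, both without Prm1, to the remaining set, so both recurrences with Prm1 are in the first. The log2 3'/5' ratio of control transcripts, which rises as RNA is degraded or copied less fully, was 0.727 and 0.969 in recurrences 2 and 4 and 1.10, 1.53, 1.78 and 1.79 in recurrences 1, 3, 5 and 6, with no overlap. It was 1.39 to 3.98 in TI-KM primaries. By Xist and Y-linked genes, recurrences 1 and 2 were female and the others male, 1 female in each group. The array set is a term of the fit, and the part of the 3'/5' ratio in the results was not tested beyond the fit with it as a covariate.

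Recurrence 1 was the farthest from the other recurrences. Its root mean square log2 difference from each of them was 0.935 to 1.31 over 15728 genes, while pairs of the other recurrences differed by 0.651 (5 and 6) to 1.09 (3 and 6), so the ranges overlapped. The pair with Prm1, recurrences 2 and 4, differed by 0.769. Pairs with recurrence 5 or 6 on 1 side also cross the array sets. In 43 pairs of TI-KM primaries of 1 set, the lowest, median and highest were 0.498, 0.661 and 0.864. Among recurrences of 1 kind and set, 1 and 3 differed by 1.23, above that range. The pair 2 and 4 and the pair 5 and 6 lay within it.

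The marker lists show what was different in recurrence 1. The summed signal of 14 B cell and plasma cell genes was 109394 there, 8404 to 28929 in the other recurrences and at most 40569 in TI-KM primaries. That of 27 genes of epithelial junctions and keratins was 42161, against 93754 to 146063 in the others. The sum of 19 alveolar type II genes was 205939, against 277274 to 350899. Other epithelial lists were highest there. The club cell list summed to 181148, against 76033 to 159045, and the ciliated cell list to 22160, against 1897.5 to 10380. These are bulk tumours, so fewer cells of a type and less RNA per cell cannot be told apart. Sftpc, a surfactant gene that marks alveolar type II cells, read 10460 to 20649 in the 6 recurrences and 11531 to 28941 in TI-KM primaries, so this marker was present in all of them. Bulk tissue does not tell whether tumour cells or normal alveolar cells gave the signal. List medians below are given with and without recurrence 1.

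The direct comparison found few genes that separated recurrences without Prm1 signal from those with it. Of 15728 genes tested, 4 passed an adjusted p of 0.05 (0.0254%), 1 higher (0.00636%) and 3 lower (0.0191%) without Prm1, by limma with Benjamini-Hochberg adjustment over all genes. At an unadjusted p below 0.05 there were 1095. The genes were Kazn, of an adaptor protein of cell junctions, and Gata5, Kiss1r and Hagh. In simulated data this comparison recovered 21 of 100 genes changed 2-fold and 70 of 100 changed 4-fold. The count moved with single arrays: it was 1 without recurrence 1, 2 without recurrence 2, 18 without recurrence 3, 47 without recurrence 4 and 8 without recurrence 6. Leaving out recurrence 2 or 4 leaves 1 array with Prm1, which is then assumed to vary like the other groups. The count was 0, with 645 genes at an unadjusted p below 0.05, among the high-18S arrays alone, and 6 with the 3'/5' ratio as a covariate. It was also 0 in the 6 recurrences alone, where the smallest limma adjusted p was 0.998.

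Kazn was low in the recurrences that had Prm1. Its signal was 191, 233, 157 and 205 in recurrences 1, 3, 5 and 6, and 34.0 and 19.2 in recurrences 2 and 4. TI-KM primaries read 97.7 to 259 with a median of 168, so recurrences 2 and 4 lay below all of them and the others within their range. The log2 difference without minus with Prm1 was 2.28 (limma adjusted p = 0.000353), on the log2(signal + 20) scale, which understates changes of weak genes. It passed in 22 of 26 alternative settings, among them those without recurrence 1, 3, 5 or 6. Without recurrence 2 or 4, which leaves 1 array with Prm1, the difference was 2.51 or 2.05. A pair of further Kazn probe sets gave -0.08 and -0.12, and with the probe sets averaged the difference was 0.69 and did not pass. Kazn was named after its values were seen, since its mean signal was under the 200 set for named genes.

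Gata5, a zinc finger transcription factor of heart and gut endoderm, was present in recurrences 2 and 4 and weak elsewhere. It read 654 and 243 in those, and 27.2, 94.3, 71.9 and 19.2 in recurrences 1, 3, 5 and 6. The lowest, median and highest TI-KM primaries were at 22.9, 52.7 and 101. The log2 difference was -2.58 (limma adjusted p = 0.0159). Its size moved with the offset because the signals are weak, to -2.93 with offset 5 (adjusted p = 0.0536) and -1.72 with offset 100 (adjusted p = 0.00102). Without recurrence 1 it was -2.33 (adjusted p = 0.0808), and without recurrence 2 it was -1.90 (adjusted p = 0.728). Another Gata5 probe set gave -0.18.

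Hagh, the glyoxalase II that clears methylglyoxal adducts, read 5051 and 3699 in recurrences 2 and 4 and 1741, 1967, 2809 and 2362 in recurrences 1, 3, 5 and 6. The groups did not overlap, and the log2 difference was -1.30 (limma adjusted p = 0.0159). TI-KM primaries depended on the array set, with 1674 to 2531 in the high-18S set and 2273 to 4978 in the remaining set. Without the array set in the fit the difference was -0.98 (adjusted p = 0.706). The call was also lost without recurrence 1 (adjusted p = 0.0708) or 2 (0.487), with the 18S signal as covariate (0.238), with median scaling (0.226) and in TI-KM arrays only (0.12). Its other probe sets gave -0.62 and -0.60, the same direction.

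Kiss1r, the receptor for kisspeptin, read 1345 and 905 in recurrences 2 and 4, and 255, 271, 475 and 813 in recurrences 1, 3, 5 and 6. TI-KM primaries were between 709 and 1001, so recurrences 1, 3 and 5 lay below them, recurrence 2 above them, and recurrences 4 and 6 within their range. The log2 difference was -1.56 (limma adjusted p = 0.0417), and it passed in 11 of 26 alternative settings. It did not pass when recurrence 1, 2, 3 or 5 was left out.

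**Figure D2:**
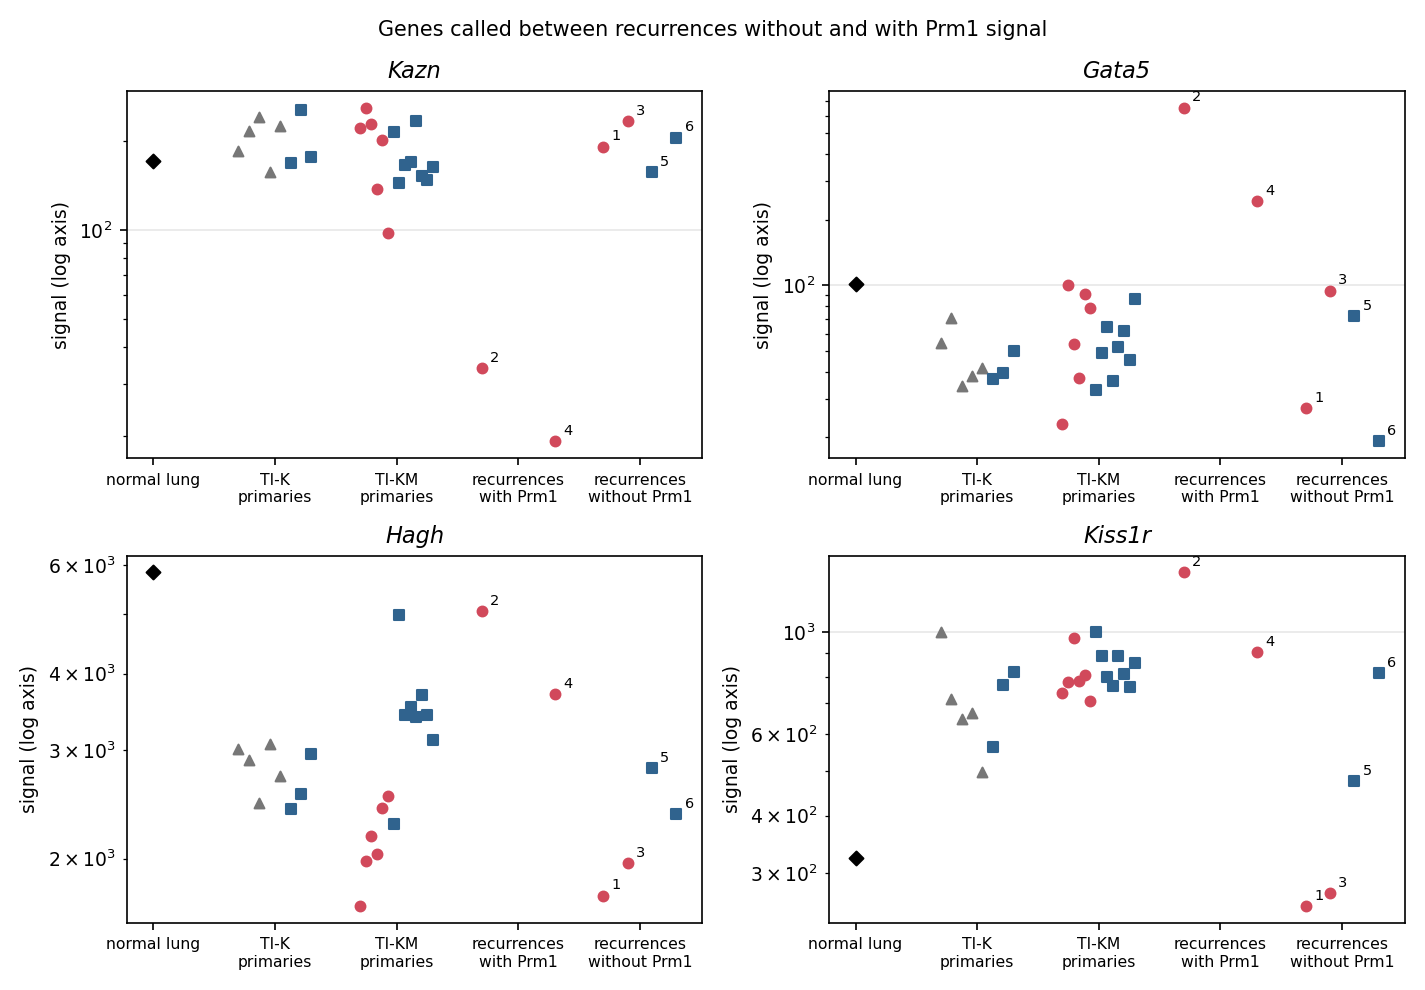
Signal (log axis) of the 4 genes called between recurrences without and with Prm1 signal, 1 point per array, with recurrence numbers beside the points and array sets as in the plot of Prm1 signal. Kazn is at 34.0 and 19.2 in recurrences 2 and 4, below every other array, and Gata5 is at 654 and 243 there, above every other array.

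More genes separated the arrays without passing the test. In 641 genes (4.08%) all 4 recurrences without Prm1 signal lay above both others, and in 898 genes (5.71%) below. For arrays that could be exchanged freely, a split of 4 against 2 separates a gene in each direction with a probability of 0.0667. Both shares lay below that, so the counts are no more than the split alone would give. Among the further separated genes with the smallest p that also kept their direction among high-18S recurrences, none was called. They are given as values.

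On the higher side were the amino acid transporter Slc7a5, the replication protein Rpa2, the antiapoptotic Mcl1, the antigen-presentation gene H2-Eb2 and Arhgap11a. Slc7a5 read 274, 442, 302 and 290 in recurrences 1, 3, 5 and 6 and 175 and 60.5 in recurrences 2 and 4 (log2 difference 1.48). Rpa2 read 907.2, 487, 712 and 555 against 251 and 206 (1.21). H2-Eb2 read 678, 399, 433 and 225 against 150 and 173 (1.67). The medians of the TI-KM primaries for these genes, 311, 451 and 307, lay above both recurrences with Prm1.

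Further genes on that side were Igbp1 (log2 difference 0.89), the pseudouridine synthase Pus7 (0.999), Oga, which removes O-GlcNAc from proteins (0.97), the zinc finger gene Zfp991 (2.09), the phosphatase Ptpn2 (0.96), the coat protein gene Sec24a (0.76), Pum3 (0.98) and Arhgap11a (1.55). Mcl1 read 15954, 13162, 12877 and 13141 against 8628 and 10195 (0.60). The adjusted p of all 12 lay between 0.355 and 0.499. Further probe sets went the other way for Zfp991 (-1.19 and -0.25), Sec24a (-0.66) and Ptpn2 (-0.42 and -0.06). So did 1 each of Mcl1 (-0.06), Igbp1 (-0.05) and Oga (-0.04), by little. The remaining probe sets of these last 4 genes were positive.

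On the lower side were Lrp2 (megalin), an endocytic receptor, Cybrd1, a ferric reductase, and Ramp1, a subunit of the CGRP receptor. Cybrd1 read 232, 343, 940 and 807 in recurrences 1, 3, 5 and 6 and 4074 and 1093 in recurrences 2 and 4 (log2 difference -2.45). Lrp2 read 244, 793, 1797 and 1415 against 1828 and 3108 (-1.99). Ramp1 read 750, 555, 504 and 1541 against 2675 and 2622 (-1.84). The recurrences closest to the other group were 5 or 6 in these 3 genes, and further Ramp1 probe sets gave 0.24 and 0.32. Those of Lrp2 gave 0.18 and -1.93, and that of Cybrd1 -0.80.

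Tdrd9, a helicase that silences transposons in male germ cells, read 54.9, 21.4, 42.6 and 10.8 against 216 and 208 (-1.98, adjusted p = 0.215). It was above all TI-KM primaries, 11.1 to 62.3, in recurrences 2 and 4. The other lower genes were Adgra3 (-1.40), Lrrc4 (-1.81), Clybl (-1.24), Med29 (-0.98) and the matrix protein gene Ecm1 (-1.11). Further probe sets gave -0.06 and -0.10 for Adgra3, 0.59 and -0.11 for Med29, and -2.54 for Lrrc4.

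Other spermatid genes were not called. They were weaker in TI-KM primaries than Prm1 by median, so a fall as large as that of Prm1 could not have been seen. A smaller loss could have been seen in stronger members such as Odf2. It read 202.5 to 742 in TI-KM primaries and 261 to 713 in the 6 recurrences. Of 28 genes of a germ cell and spermatid list, 19 passed the filter on low values, 0 were called between the groups, and 0 reached an unadjusted p below 0.05 (3.39% of all genes did so as higher and 3.57% as lower). Prm2 read 260, 144, 91.6 and 99.0 in recurrences 1, 3, 5 and 6 and 151 and 164 in recurrences 2 and 4. Prm3 read 164, 140, 64.4 and 32.3 against 87.0 and 33.8, the largest difference of the list at 0.95 (limma adjusted p = 0.738). The groups overlapped for both. TI-KM primaries read 17.2 to 194 for Prm3, with a median of 92.6, where they read 872 to 12918 for Prm1. The 19 genes together summed to 2193 to 3558 in TI-KM primaries.

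In 4 of the 19 the arrays did not overlap, 1 higher and 3 lower without Prm1, where 4.08% and 5.71% of all genes did so. The sperm genes Odf1, Gapdhs and Ldhc were lower without Prm1, with differences of -0.49, -0.36 and -0.27, and their signals were weak. Gapdhs, a glycolytic enzyme of the sperm tail, read 342, 346, 127 and 88.9 against 566 and 379. Crem, whose product activates Prm1 in spermatids, was on the other side, with 354, 436, 768 and 715 in recurrences 1, 3, 5 and 6 and 319 and 322 in recurrences 2 and 4 (0.27). The sperm tail gene Odf2 overlapped, with 713, 275, 635 and 492 against 261 and 329 (0.41, limma adjusted p = 0.841). The median difference of the list was 0.17, against 0.02 for all genes tested, and 0.11 without recurrence 1, but -0.24 without the array set in the fit.

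Mad2l1 did not separate the groups. Its signal was 1845, 437, 1247 and 610 in recurrences 1, 3, 5 and 6, and 611 and 457 in recurrences 2 and 4. The lowest value of all 6 was in a recurrence without Prm1 signal, and TI-KM primaries read 492 to 1271 with a median of 730. The log2 difference was 0.64 ± 0.43 SE (limma adjusted p = 0.815). Whether this probe set also reads the transgene was not tested.

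Of the other spindle checkpoint and kinetochore genes, 27 with Mad2l1, none was called. Mis12, of the kinetochore complex that bears its name, had the smallest p, with 376, 345, 321 and 376 against 247 and 265 (0.50, limma adjusted p = 0.691). The list's median was 0.25 with recurrence 1 and -0.04 without it. Mitotic genes were high in recurrence 1 in particular, as Cdca8 at 3077 against 263 to 833 in the other recurrences shows.

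Transcripts that follow RAS and ERK signalling spread widely among the recurrences without Prm1. These genes, such as the Sprouty and dual-specificity phosphatase families, are induced by ERK and feed back on it. None of 24 was called, and 2 reached an unadjusted p below 0.05, both lower (3.57% over all genes). Spred3, an inhibitor of RAS signalling, read 6.97, 67.8, 73.1 and 59.0 in recurrences 1, 3, 5 and 6 against 188 and 106 (-1.15, limma adjusted p = 0.647), and Spry1 940, 2422, 3885 and 4942 against 3220 and 3697 (-0.76, adjusted p = 0.689). The Spry1 arrays overlapped.

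The low end was recurrence 1 and the high end recurrence 3. Dusp6, an ERK phosphatase, read 1064 in recurrence 1, 7472 in recurrence 3, 3287 and 2557 in recurrences 5 and 6, and 2977 and 3675 in recurrences 2 and 4, where TI-KM primaries read 1378 to 5672. The summed signal of the 24 genes was 19094 in recurrence 1, below the 40866 of the lowest TI-KM primary, and 75223 in recurrence 3, above the highest at 73913. The others were between 51688 and 58292. The median difference of the list was -0.37 over all recurrences and 0.12 without recurrence 1, so its sign rests on that array.

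Ligands of the EGF receptor showed the same spread. Ereg (epiregulin) read 102, 13187, 1786 and 2252 in recurrences 1, 3, 5 and 6 and 9756 and 3636 in recurrences 2 and 4, so recurrence 3 exceeded both. Epgn (epigen) did not overlap, with 34.0, 120, 39.6 and 84.0 against 130 and 167 (log2 difference -1.12). Of 14 genes of this family none was called. The list's median was -0.35, and -0.09 without recurrence 1.

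Of 19 other growth factor ligands, 0 were called and 4 reached an unadjusted p below 0.05, all lower without Prm1 (3.57% over all genes): Wnt7a, Bmp4, Igf1 and Vegfa. Vegfa, which drives vessel growth, read 490, 2127, 896 and 963 against 2167 and 1985, with recurrence 3 between those. The median of the ligands was -0.46, and -0.29 without recurrence 1, and it kept its sign in all settings run.

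Matrix genes gave the lowest median of the 51 lists. Of 21 genes of fibroblasts and matrix, 0 were called, and in 8 the arrays did not overlap, all lower without Prm1, where 5.71% of all genes were lower in that way. The elastic fibre gene Eln read 1196, 871, 714 and 1145 in recurrences 1, 3, 5 and 6 and 4264 and 2152 in recurrences 2 and 4 (log2 difference -1.18). Its microfibril partner Mfap5 read 271, 134, 207 and 128 against 461 and 483 (-1.08), and the collagen gene Col5a2 1187, 363, 1076 and 741 against 1362 and 1695 (-1.08). The other 5 were Col1a1, Col5a1, Col6a1, Lox and Sparc. This count takes no account of the array set, and recurrences 5 and 6 are in the remaining set. In TI-KM primaries the list's summed signal had a median of 39020 in the high-18S set and 25646 in the remaining set. The sum was 42859, 20632, 29524 and 23340 in recurrences 1, 3, 5 and 6 against 41888 and 51402, so the groups overlapped.

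The list's median was -0.58, and -0.89 without recurrence 1. Among high-18S arrays alone it was -0.60. In that array matrix genes were split, with Dcn at 5715 and Col1a1 at 190. Mesothelial markers varied among the same arrays. The summed signal of 9 mesothelial genes was 12589 and 2653 in recurrences 4 and 2 and 8608, 937, 2462 and 4049 in recurrences 1, 3, 5 and 6, overlapping between the groups. Its part in the result was not tested.

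Genes of the TGF-beta and BMP pathways, whose ligands and secreted inhibitors act between tumour cells and stroma, gave 0 calls among 25. At an unadjusted p below 0.05, 6 were lower and 0 higher without Prm1 (3.57% and 3.39% over all genes): Bambi, Tgfb3, Fst, Smad6, Bmp4 and Inhbb. Bambi, a decoy receptor, read 425, 967, 975 and 1685 in recurrences 1, 3, 5 and 6 against 1915 and 5225 (log2 difference -2.62), where TI-KM primaries ranged from 621 to 21184. Tgfb3 read 580, 45.6, 156 and 113 against 573 and 490, with recurrence 1 as high as the others with Prm1. The list's median was -0.19, and -0.27 without recurrence 1.

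Among lists with a positive median, those of antigen presentation and replication were near the top. All 9 genes of the MHC class II list had a positive difference, with a median of 0.57, 0 called and 0 at an unadjusted p below 0.05. The median was 0.46 without recurrence 1 and 0.004 at the lowest when 1 recurrence was left out. H2-Eb2, given above, is also a class II gene but not a member of this list. Its difference was 1.67 (limma unadjusted p = 0.000187, adjusted p = 0.355). H2-Ab1 read 18613, 5676, 12240 and 14499 in recurrences 1, 3, 5 and 6 and 2862 and 13566 in recurrences 2 and 4. Recurrence 2 was the lowest of the 6, and recurrence 4 lay among those without Prm1.

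Of 25 genes of DNA replication 23 had a positive difference, 0 were called, 2 reached an unadjusted p below 0.05, and the median was 0.51, and 0.15 without recurrence 1. Mcm5 read 4954 in recurrence 1 and 470 in recurrence 3, the highest and the lowest of the 6. For the unfolded protein response the median was 0.23, 0.10 without recurrence 1 and 0.01 at the lowest when 1 recurrence was left out, and 6 of 24 genes did not overlap, all higher without Prm1 (4.08% over all genes): Ern1, Hspa5, Pdia6, Xbp1, Dnajb9 and Herpud1. Xbp1, a transcription factor of that response, read 19944, 14241, 16797 and 15971 against 11924 and 11846. Oxidative phosphorylation also had 6 of 24 genes without overlap on that side, but a median of -0.01, and -0.07 without recurrence 1. Both counts take no account of the array set. In TI-KM primaries of the high-18S and remaining sets, the median summed signal was 108459 and 128293 for the unfolded protein response. For oxidative phosphorylation it was 157991 and 198820. Among high-18S arrays alone the median differences of these lists were 0.42 and 0.07.

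Over the 51 lists, 11 medians changed sign without recurrence 1. Among them, B cell genes went from 0.51 to -0.66, T and NK cell genes from 0.37 to -0.34, and alveolar type II genes from -0.23 to 0.07. In 17 lists the median kept its sign in every setting run. None of the members of any list was called between the groups by limma, and list members named here beyond the fixed rule were chosen after their values were seen.

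**Figure D3:**
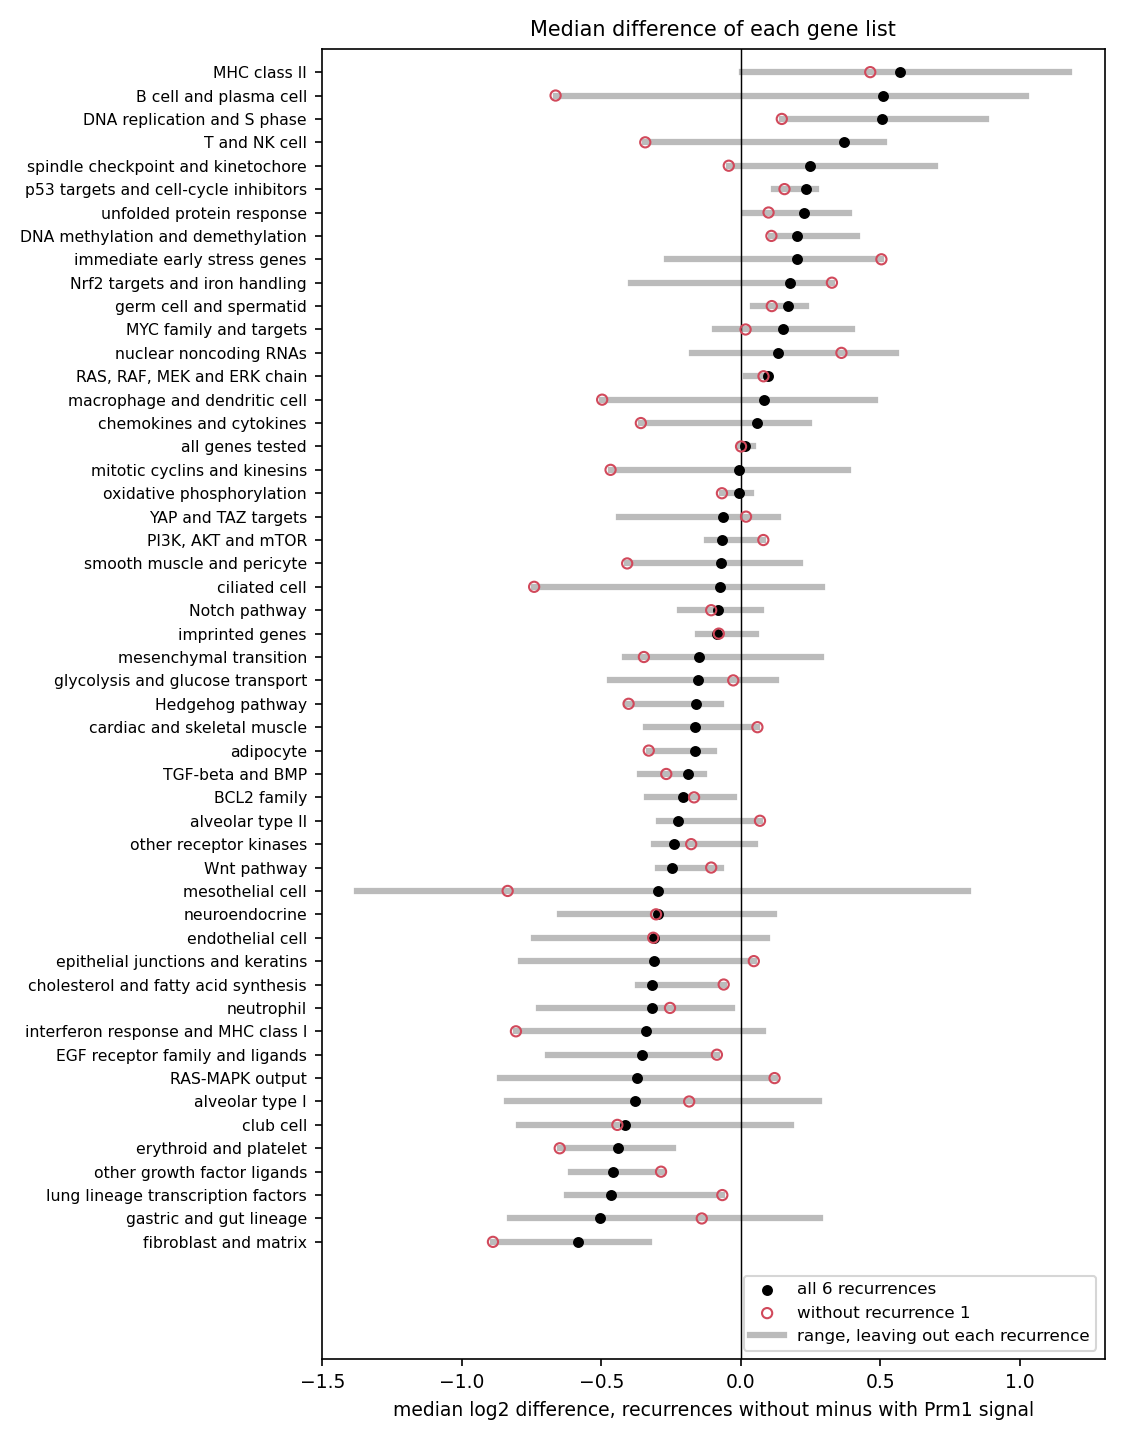
Median log2 difference (recurrences without minus with Prm1 signal) over the tested members of each gene list; filled points use all 6 recurrences, open points leave out recurrence 1, and bars span the medians with each recurrence left out in turn. Fibroblast and matrix genes are lowest at -0.58, MHC class II highest at 0.57 (sex-linked genes are not drawn), and the RAS-MAPK output list crosses 0 from -0.37 to 0.12 without recurrence 1.

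**Figure D4:**
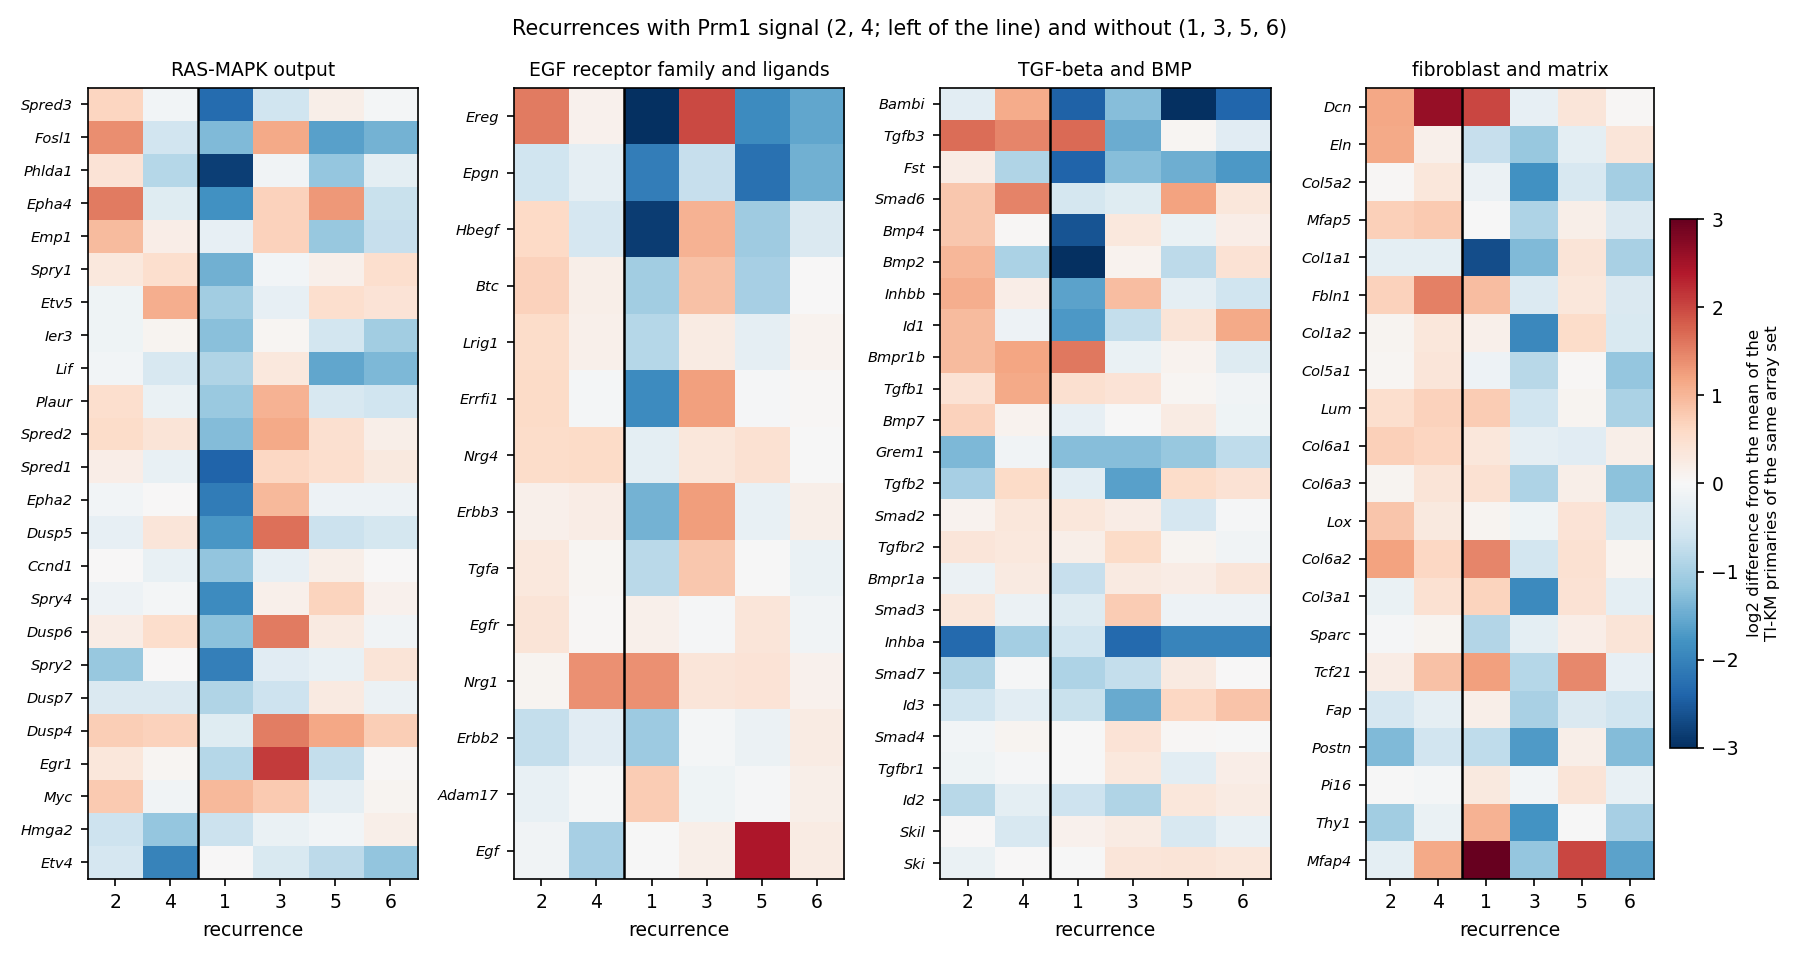
Log2 difference of each recurrence from the mean of the TI-KM primaries of its array set, for the members of 4 lists, sorted by the difference between groups; recurrences 2 and 4 have Prm1 signal, and colours saturate at -3 and 3. Recurrence 1 is low for most RAS-MAPK output and EGF family genes and recurrence 3 is high for many of them.

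Few genes shared the full pattern of Prm1, with all 4 recurrences without it outside the range of every other tumour. Over 15728 genes 6 lay below all 24 of those (0.0381%) and 2 above (0.0127%). They were chosen for this pattern, so their values are a description. The widest gap, 0.37 on the log2 scale, was that of Fst, follistatin, a secreted inhibitor of activins. It read 153, 361, 295 and 241 in recurrences 1, 3, 5 and 6, and 1051 and 474 in recurrences 2 and 4. TI-KM primaries read 480 to 1330 and TI-K primaries 742 to 1402. On the second Fst probe set recurrence 3 read 203, above recurrence 4 at 193.

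The collagen gene Col8a1 read 160, 133, 365 and 296 against 612 and 654, with TI-KM primaries from 389. Recurrences 5 and 6 were close to that lower end. The gaps of the other 4, Cep95, Zscan26, Cxcr2 and H3f3a, were 0.03 to 0.05, so they lay barely apart. H3f3a is represented by 1 probe set with signals of 49.2 to 89.9 in the group, and Cep95 has others that gave differences of 0.11 and 0.55 in the opposite direction.

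On the higher side St6gal1, a sialyltransferase of the Golgi, read 12613, 10682, 10647 and 10684 in recurrences 1, 3, 5 and 6, 4630 and 6116 in recurrences 2 and 4, and at most 9846 in any primary. Kpnb1, the nuclear import receptor importin beta, read 3120, 3321, 3942 and 3044 against 2456 and 2844, with primaries up to 2951. The gap for Kpnb1 was 0.04. Another Kpnb1 probe set of similar strength read 3337, 3426, 2038 and 1459 against 2716 and 3156. Recurrences 5 and 6 thus lay below both recurrences with Prm1 there. On a weak further St6gal1 probe set they also did, at 52.8 and 68.8 against 119 and 106. For comparison, recurrences 2 and 4 lay below all other tumours in 87 genes (0.553%) and above them in 75 (0.477%). A group of 2 falls outside a range more easily than a group of 4, so these counts are not set against each other.

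Each kind of recurrence was also compared with the TI-KM primaries, which both comparisons share as controls. Recurrences without Prm1 signal had 55 called genes (0.350% of 15728), 10 higher (0.0636%) and 45 lower (0.286%), and those with it 8 (0.0509%), 3 higher (0.0191%) and 5 lower (0.0318%), by limma. At an unadjusted p below 0.05, 5.05% of genes were higher and 7.40% lower in the first, and 4.58% higher and 6.29% lower in the second. The groups of 4 and 2 arrays give different power, and a gene called in the first and not in the second is not thereby shown to differ. With the 3'/5' ratio as a covariate, which was lower in most recurrences than in most primaries, the counts were 8 and 1, and 0 of these were higher. The 55 became 29, 176, 21 and 101 without recurrence 1, 3, 5 or 6, and the 8 became 15, 8, 6 and 11. Without recurrence 2 or 4 the group with Prm1 is 1 array, and no count is given for it. With arrays scaled to a common median the first split was 13 higher and 25 lower.

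In recurrences without Prm1 signal, growth factor and signalling genes were among those that fell. Fst fell by 1.71 on the log2 scale (limma adjusted p = 0.00145), where the difference of recurrences with Prm1 from primaries was -0.31 (adjusted p = 0.810). Csf2, the myeloid growth factor GM-CSF, read 28.7, 20.7, 245 and 433 in recurrences 1, 3, 5 and 6, 207 and 467 in recurrences 2 and 4, and 277 to 871 in TI-KM primaries. Its log2 differences from primaries were -1.95 (adjusted p = 0.00500) and 0.04 (adjusted p = 0.987). Recurrences 1 and 3 lay far below all primaries, and recurrence 6 within them.

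Epgn fell by 1.61 (adjusted p = 0.0231; -0.49 with Prm1), and Wnt7a, a Wnt ligand, by 2.23 (adjusted p = 0.0289; -0.50 with Prm1). Wnt7a read 8.47, 249, 35.6 and 645 in recurrences 1, 3, 5 and 6, so recurrence 6 was within the primaries at 253 to 1126, and its other probe sets gave -0.08 and 0.15. Col8a1 fell by 1.62 (limma adjusted p = 0.0115; 0.02 with Prm1), and its other probe sets gave -0.53 and 0.06. Fst had a second probe set, at -1.83 and -0.86.

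Some genes called lower without Prm1 also had negative differences from the shared primaries in recurrences with it, and the 2 values are given side by side. Their direct differences, with SE of 0.54 to 1.02, were too imprecise to show that the kinds were alike. Meg3, an imprinted noncoding RNA, had log2 differences of -3.02 without and -3.90 with Prm1 (limma adjusted p = 0.0321 and 0.124), the nuclear RNA Neat1 -2.55 and -2.44 (0.0231 and 0.223), Firre -1.74 and -2.26 (0.0370 and 0.131), Tet2, an enzyme of DNA demethylation, -1.77 and -1.46 (0.0197 and 0.252), and Rprm, an inducer of cell-cycle arrest, -1.88 and -1.53 (0.0228 and 0.281). The other probe set of Tet2 gave only -0.43 and -0.51, and that of Neat1 -0.22 and -0.30. Those of Meg3 and Firre were negative in both kinds, but as small as -0.31 and -0.05 without Prm1. Meg3 read 394, 6835, 749 and 462 in recurrences 1, 3, 5 and 6 and 541 and 930 in recurrences 2 and 4, so recurrence 3 was the one within the primaries at 948 to 26316.

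As small an adjusted p as that of Fst was found for A330023F24Rik, a long noncoding RNA. Its signal was 50.8, 13.9, 4.82 and 5.12 in recurrences 1, 3, 5 and 6, 66.4 and 108 in recurrences 2 and 4, 26.0 to 509 in TI-KM primaries and 177 in the normal lung. The log2 differences from primaries were -2.34 (limma adjusted p = 0.00145) and -1.29 (adjusted p = 0.303). This transcript spans the genes of the microRNAs miR-29b-2 and miR-29c on chromosome 1, whose mature 3p sequences are shown with the seed (bases 2 to 8) in capitals, because they are what the locus encodes beside the measured RNA.
mmu-miR-29b-3p: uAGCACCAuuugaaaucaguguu
mmu-miR-29c-3p: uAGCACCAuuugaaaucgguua
The sequences are RefSeq's at chr1:195037091-195037113 and chr1:195037600-195037621 on the plus strand of GRCm38.p6, and both share 1 seed. The array measured the host transcript and not the microRNAs.

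Among the 10 genes called higher in recurrences without Prm1 signal, none of which was called with the 3'/5' ratio as a covariate, were Fmo2, a flavin monooxygenase of lung, Gstm2, a glutathione transferase, and Slc2a3, the glucose transporter GLUT3. Fmo2 read 2336, 6653, 6298 and 6780 in recurrences 1, 3, 5 and 6 and 2951 and 3940 in recurrences 2 and 4, where the highest TI-KM primary was at 2874. Its log2 differences were 1.75 (limma adjusted p = 0.0197) and 1.33 (adjusted p = 0.281). Slc2a3 read 1507, 1483, 11031 and 642 against 9851 and 365, with differences of 3.02 (adjusted p = 0.0476) and 2.63 (adjusted p = 0.303). The TI-KM primaries ended at 669.8, and 1 recurrence of each kind, 5 and 2, lay far above the others.

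In recurrences with Prm1 signal, the 8 called genes included Kazn (-2.16), Gata5 (2.40) and Hagh (0.996), described above. The others were the zinc finger gene Zfp40 (-2.49), the ankyrin repeat gene Anks3 (-2.14), the stromelysin Mmp11 (-1.75), the biotin ligase Hlcs (2.01) and the tRNA methyltransferase Trmt2a (-1.11). A further Zfp40 probe set gave 0.04, those of Trmt2a ranged from -1.13 to 0.21, and those of Kazn gave -0.07 and 0.56. Anks3 fell in both kinds, by 1.34 without Prm1 (limma adjusted p = 0.00500) and by 2.14 with it (adjusted p = 0.00126), and its other probe set gave -0.06 and -0.65.

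The 2 recurrences with Prm1 signal differed from each other in lineage genes. Recurrence 2 had gastric and gut transcripts: Anxa10 read 7278 there and 18.7 in recurrence 4, the nuclear receptor Hnf4a 1768 and 153, and the protease Ctse 7671 and 418. The summed signal of 19 such genes was 25758 in recurrence 2 and 4466 to 12186 in the other 5, within the 2269 to 26789 of TI-KM primaries. Mesothelial genes stood out in recurrence 4, with Upk3b at 3197 there and 18.6 in recurrence 2. The neutrophil list summed to 14181 in recurrence 2, above the highest TI-KM primary at 7477, and to 2724 in recurrence 4.

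Expression along chromosomes separated 1 recurrence and not the groups. For each tumour the median log2 difference of an autosome's genes from TI-KM primaries of the same set was taken, and its SD over 19 autosomes measures how unevenly chromosomes are expressed; it is not copy number. The SD was 0.0869 in recurrence 2 and 0.0321 in recurrence 4, and 0.0389, 0.0336, 0.0257 and 0.0226 in recurrences 1, 3, 5 and 6. In the 14 TI-KM primaries it was 0.0184 to 0.0681 with a median of 0.0314. Recurrence 2 lay outside the range of the primaries on 13 of 19 autosomes, recurrence 1 on 8, recurrence 3 on 6, recurrences 4 and 5 on 2 and recurrence 6 on 0.

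**Figure D5:**
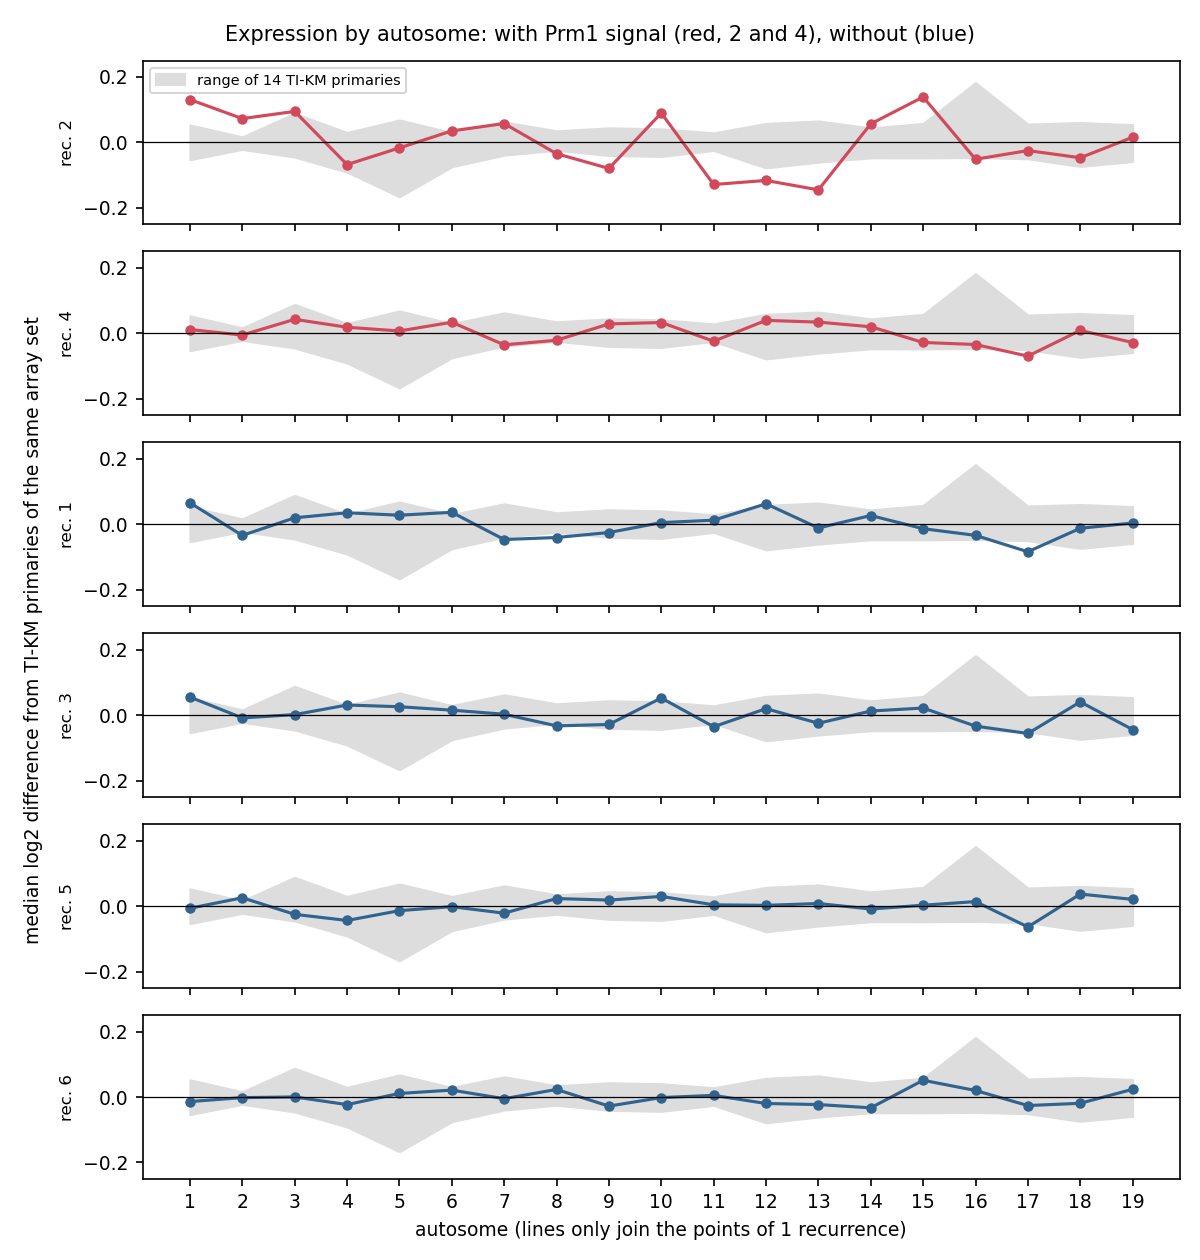
Median log2 difference of each autosome's genes in 1 recurrence from the TI-KM primaries of its array set, after subtraction of the median over all autosomal genes; the grey band is the range of 14 TI-KM primaries, each against the others of its set. Recurrence 2 leaves the band on 13 of 19 autosomes, down to -0.146 on chromosome 13 and up to 0.138 on chromosome 15.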

How the data were processed

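Total RNA of 29 mouse lung samples was measured on Affymetrix arrays, 1 sample an array. The deposited intensity values are MAS5 signals per the submitters' processing notes (version not given), and the authors' table has a 2% trimmed mean of 500.003 in every array. There is no read depth, and the number of arrays limits the precision. Of 45101 probe sets, 64 are controls, 34945 have 1 gene, 932 several and 9160 none; 34741 matched RefSeq (GRCm38.p6) names.

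Probe sets above their own array's 40th percentile in at least 2 arrays were kept (35735), and for each of 15728 genes the one with the highest mean was used. Log2(signal + 20) of the 28 tumours was fitted with limma 3.58.1 (lmFit, eBayes with trend; R 4.3.3, package data.table, version 1.17.8) with terms for group and array set: 10 arrays with 18S signal above 12000, 5 TI-K arrays with title numbers above 6000, and the 13 remaining. These sets were read from the data and titles, not labelled by the submitters. P-values were adjusted by Benjamini-Hochberg over all genes. Replicate numbers follow accession order, and TI-KM primaries 1 and 2 share a title number.

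Named genes were, by a fixed rule, Prm1, Mad2l1, up to 12 genes each way with no overlap and a mean of at least 200 in the higher group, up to 8 each way with the pattern of Prm1, and the first members of 3 lists; others were chosen after their values were seen. The members and the 51 lists were chosen with earlier results of these data known. On simulated data with the design of recurrences without against with Prm1 over 15728 genes, 21 of 100 genes changed 2-fold and 70 of 100 changed 4-fold were called, with 4 false calls. The simulated noise was normal and, for each gene, of the same size in every array. Alternatives concerned the array set, the samples fitted, offset, scaling, filter, moderation, probe-set choice, sex, the 3'/5' ratio and each recurrence left out.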

Additional observations from a re-analysis of the deposited data

Results flagged for a closer look

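In 39 genes examined, 4 had 1 of the 4 recurrences without Prm1 signal far from the other 3, by the gap to its nearest neighbour over the whole range (critical value 0.829, which chance alone passes in some groups). Mcl1 was highest in recurrence 1 at 15950 (gap over range 0.898), and St6gal1 also in recurrence 1 at 12610 (0.980). Spred3 was lowest in recurrence 1 at 6.966 (0.868). Arhgap11a was lowest in recurrence 6 at 925.9 (0.840).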

How the results depend on the processing

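The 4 genes called between recurrences without and with Prm1 became 2 without the array set, with offset 5 or with median scaling (1 higher and 1 lower), 5 with quantile normalization (2 higher and 3 lower), 1 with TI-KM arrays only, and 0 in high-18S arrays only, in the 6 recurrences alone and with probe sets averaged, where limma gave 645, 302 and 1045 genes at an unadjusted p below 0.05. Leaving out 1 recurrence gave 1 to 47. The 55 genes called between recurrences without Prm1 and TI-KM primaries became 14 without the set, 96 with the 18S signal as covariate, 4 in high-18S arrays only, 16 with TI-KM arrays only and 8 with the 3'/5' ratio, and 21 to 176 leaving out 1 recurrence. The 8 for recurrences with Prm1 became 5 without the set, 0 in high-18S arrays only (860 at an unadjusted p below 0.05), 3 with TI-KM arrays only, 5 with median scaling, 13 with quantile normalization, 3 with probe sets averaged and 1 with the 3'/5' ratio, and 6 to 94 leaving out 1 recurrence. Genes with the pattern of Prm1 numbered 6 to 24 lower and 2 to 12 higher leaving out 1 recurrence. Alternatives chosen after seeing the data gave 0 calls in the 6 recurrences alone with the set as a term (508 at an unadjusted p below 0.05), and 21 and 377 calls, without against with Prm1 and without Prm1 against primaries, where the set effect could differ between recurrences and primaries. The SD over autosomes of recurrence 2 was 0.066 with offset 100. Odf2 turned to -0.0668 with probe sets averaged, and Lin52, -1.35 against primaries in recurrences without Prm1, to 0.47 with signal above 200 in 2 arrays. The causes were not tested. No paired analysis was possible because the replicate numbers follow accession order and pair no samples. With 2 arrays on 1 side, no exact permutation test of 4 against 2 can give a p under 0.0667.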
